A study of Mus musculus with 47 samples.

Results

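The neurotrophin genes described here are 7: Bdnf and Ntf3, which encode secreted growth factors, Ntrk2, Ntrk3 and Ngfr, which encode their receptors, Sort1, which encodes a sorting receptor, and Vgf, which encodes a secreted peptide precursor. They were taken by gene name, 7 of the 48795 genes in the deposited tables, because supply of brain-derived neurotrophic factor (BDNF) from the cortex to the striatum is a known theme of Huntington's disease. RNA of the cerebral cortex was sequenced with a stranded kit in 47 C57BL mice aged 6 months, 23 female and 24 male. Q140 is a knock-in allele that puts an expanded CAG repeat into Htt, the gene mutated in Huntington's disease; carriers are heterozygous by their titles. The groups were Q140 (8 mice), Q140 x Ccdc82+/- (8), Q140 x Ccdc82-/- (7), Ccdc82+/- (8), Ccdc82-/- (8) and wild type (WT, 8), with 4 females and 4 males in each except Q140 x Ccdc82-/-, which had 3 females. Ccdc82 encodes a coiled-coil protein, and the crosses ask whether its loss changes the cortex with or without the Q140 allele. No cell type is targeted by these alleles as labelled, and the sources used here do not give the deleted part of Ccdc82.

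Neurotrophins are made as precursors, cut by proprotein convertases in the secretory pathway or by plasmin and other proteases outside the cell, and released in part when neurons fire. BDNF binds TrkB, the product of Ntrk2, and neurotrophin-3, the product of Ntf3, binds TrkC, the product of Ntrk3. The low-affinity receptor p75NTR, the product of Ngfr, binds mature and precursor forms, and with sortilin, the product of Sort1, it forms the receptor of the uncut precursors. Sortilin also directs proBDNF into the regulated secretory pathway. Vgf is a target of BDNF signalling, and both Vgf and Bdnf are transcribed in response to neuronal activity. Cortical neurons make BDNF and carry it along their axons to the striatum, which makes little of its own.

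Bdnf (ENSMUSG00000048482) lies on chromosome 2 at 109674700-109727007 on the plus strand (GRCm38, GENCODE M21), with 11 annotated transcripts that start at several alternative first exons. Ntf3 (ENSMUSG00000049107) lies on chromosome 6 at 126101412-126166910, minus strand, and Ngfr (ENSMUSG00000000120) on chromosome 11 at 95568818-95587735, minus strand. Ntrk2 (ENSMUSG00000055254) spans chromosome 13 from 58806569 to 59133970, plus strand, with 10 transcripts, of which 7 are coding. Ntrk3 (ENSMUSG00000059146) spans chromosome 7 from 78175959 to 78738012, minus strand, with 20 transcripts, of which 6 are coding. Sort1 (ENSMUSG00000068747) lies on chromosome 3 at 108284082-108361511, plus strand, and Vgf (ENSMUSG00000037428) on chromosome 5 at 137026392-137033351, plus strand. Counts were per gene, so the full-length and truncated forms of TrkB and TrkC and the transcripts of the single Bdnf first exons were summed. Other annotated genes overlap Bdnf, Ntrk2, Ntrk3 and Sort1, and the sources used here do not say whether counting used the strand, so reads of overlapping genes cannot be told apart.

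Promoter sequence is shown for 2 genes, since Bdnf moved from mouse to mouse with activity-regulated genes, and of these most closely with Pcsk1, which encodes a proprotein convertase. RefSeq windows on GRCm38.p6 were searched over the 250 bases before each start for the cAMP response element, the site bound by the transcription factor CREB, as the full palindrome TGACGTCA and as the half-site TGACG or its complement CGTCA. The full site holds both half-sites. Of 32851 windows of this length, 1.55% held the full site and 17.8% a half-site. Among the neurotrophin genes, windows were found for 4 (Bdnf with 7, Ntf3 with 2, Ntrk2 and Ngfr with 1 each), and 1 of these 11 windows, a Bdnf start, held a half-site. It began 35 bases before the start. In Pcsk1 the full site began 78 bases before the start and a further half-site 50 bases before it. Of the listed activity-regulated genes only Pcsk1 and Scg2 were searched, and Scg2 also held the full site, 68 bases before its start. The sequences run 5′ to 3′ on the plus strand, with the matches in capitals. The Bdnf window is chr2:109692186-109692435 and the Pcsk1 window is chr13:75089607-75089856. A match of letters describes the window and does not show binding.
Bdnf: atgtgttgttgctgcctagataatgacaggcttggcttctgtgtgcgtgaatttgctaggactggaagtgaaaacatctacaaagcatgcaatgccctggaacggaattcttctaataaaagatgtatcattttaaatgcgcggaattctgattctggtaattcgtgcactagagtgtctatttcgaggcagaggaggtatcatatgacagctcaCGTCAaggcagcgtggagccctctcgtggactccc
Pcsk1: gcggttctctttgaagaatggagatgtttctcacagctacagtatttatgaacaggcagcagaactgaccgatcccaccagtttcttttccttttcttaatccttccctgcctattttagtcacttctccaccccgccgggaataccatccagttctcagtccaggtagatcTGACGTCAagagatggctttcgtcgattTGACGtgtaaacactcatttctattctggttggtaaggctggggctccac

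Library totals lay between 43554594 and 61370843 counts, with a median of 50473683. Ccdc82 averaged 15.7 ± 0.95 CPM, counts scaled to library size, in Q140 mice (SD, n = 8), 11.4 ± 0.901 in Q140 x Ccdc82+/- (n = 8), 5.52 ± 0.446 in Q140 x Ccdc82-/- (n = 7), 10.9 ± 0.997 in Ccdc82+/- (n = 8), 5.30 ± 0.630 in Ccdc82-/- (n = 8) and 16.2 ± 1.54 in WT (n = 8), in the order of the labelled gene dose. The tissue carried its cortical markers, with Slc17a7, the vesicular glutamate transporter of cortical excitatory neurons, between 205 and 239.5 FPKM, the deposited values per kilobase of gene and sequencing depth, beside 1.22 to 2.12 FPKM for the striatal dopamine receptor Drd1. Nothing in the labels says that mice of a group came from separate litters, so p-values measure the spread between these mice.

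All 7 genes were detected in every mouse and passed the filter on low counts, but their levels differed widely. Per gene length, over 47 mice, Vgf averaged 109 ± 16.1 FPKM (SD), Sort1 102 ± 3.30 FPKM and Ntrk2 51.4 ± 3.62 FPKM. Ntrk3 averaged 6.42 ± 0.648 FPKM and Bdnf 5.95 ± 1.29 FPKM. Ntf3 averaged 0.297 ± 0.0880 FPKM and Ngfr 0.280 ± 0.0775 FPKM. The TrkB gene thus stood well above the genes of its ligand and of TrkC, and the p75NTR and neurotrophin-3 genes were close to the lower end. The 2 lowest genes were measured from few reads, 13 to 41 per library for Ntf3 and 27 to 87 for Ngfr, against 1172 to 3381 for Bdnf, 29531 to 48432 for Ntrk2 and 32391 to 46807 for Sort1.

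The genes also differed in how much they varied between mice. The coefficient of variation over 47 mice was 3.23% for Sort1, 7.04% for Ntrk2 and 10.1% for Ntrk3. It was 14.7% for Vgf and 21.7% for Bdnf. Ntf3 with 29.6% and Ngfr with 27.7% varied most, at the read numbers given above. When the 6 genotypes were ranked by mean CPM for each gene, 34 of 35 neighbouring pairs differed by less than the larger SD of the pair. The 1 exception was Sort1 between Q140 x Ccdc82-/- and Q140 x Ccdc82+/- (exact two-sided permutation p = 0.0437, 0.983 after Benjamini-Hochberg adjustment over the 35 pairs). Neighbours in a ranking are the closest pairs, so this does not bound the gaps between genotypes farther apart. Sort1, for example, averaged 785 ± 19.6 CPM in WT and 746 ± 17.4 CPM in Q140 x Ccdc82+/- (SD), farther apart than either SD.

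**Figure D1:**
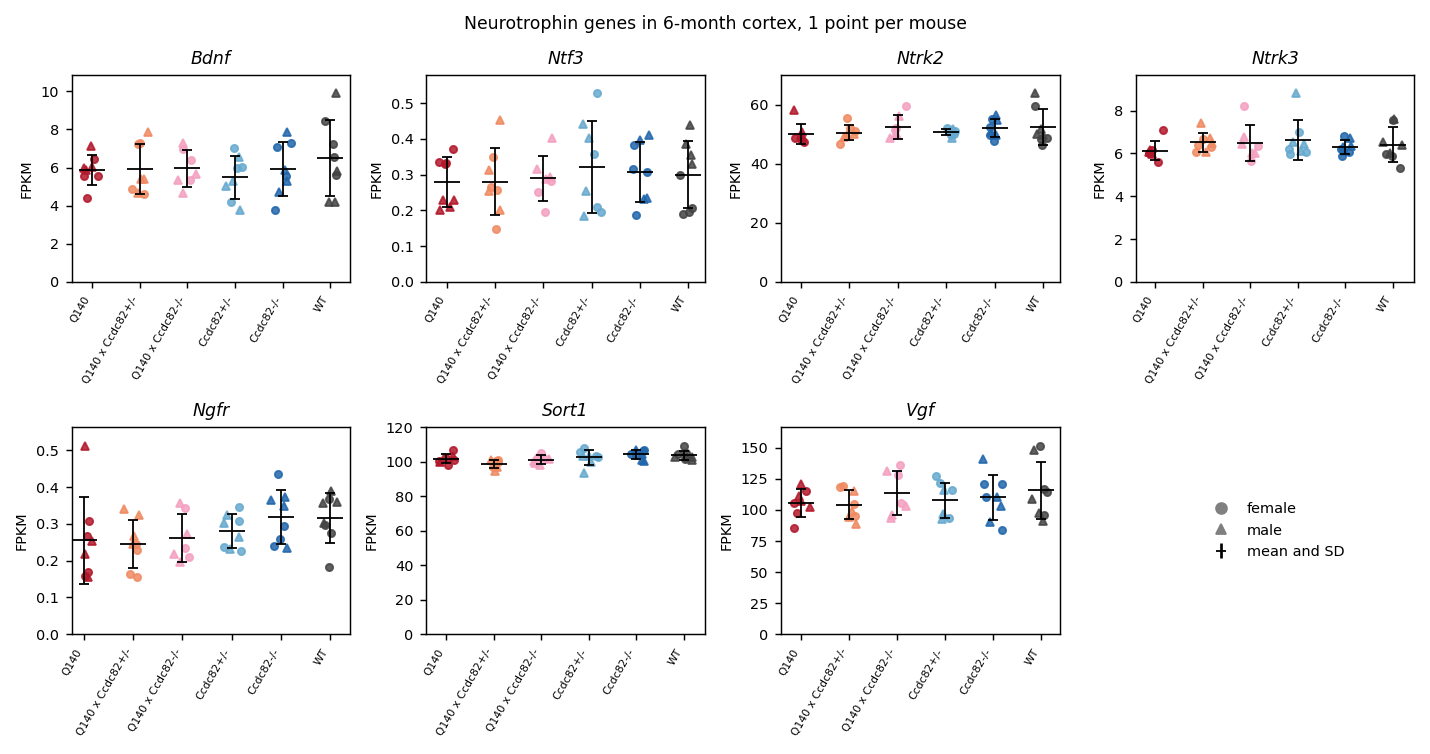
FPKM of the 7 neurotrophin genes in 6 genotypes, 1 point per mouse (circles female, triangles male), with the mean and SD of each genotype as black bars; every vertical axis starts at 0. The genotypes overlap for every gene except Sort1. There every WT mouse (101.2 to 109.2 FPKM) lies above every Q140 x Ccdc82+/- mouse (94.6 to 100.8 FPKM). The highest Bdnf value belongs to a WT male.

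Bdnf did not pass the test in mice with the Q140 allele. By genotype, the lowest, median and highest Bdnf values were 27.4, 36.96 and 44.3 CPM in Q140 mice, 28.7, 33.5 and 48.8 in Q140 x Ccdc82+/-, and 29.1, 35.1 and 45.4 in Q140 x Ccdc82-/-. They were 23.4, 35.1 and 43.6 CPM in Ccdc82+/-, 23.4, 35.6 and 49.1 in Ccdc82-/- and 26.2, 38.3 and 61.5 in WT. The groups overlapped almost completely, and the 2 highest values of all were those of WT male 1 (61.5 CPM) and WT female 1 (52.6 CPM). Averaged over the 3 Ccdc82 genotypes, 23 mice with Q140 differed from 24 mice without it by a log2 difference of -0.014 (SE 0.096, edgeR adjusted p = 0.985). The 95% interval of the fold, 0.866 to 1.13, spans 1. Its sign was not stable: leaving out single mice gave -0.040 to 0.029.

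Against WT alone, Bdnf in Q140 mice differed by -0.15 (SE 0.16, adjusted p = 0.923), with a fold of 0.902 and a 95% interval of 0.717 to 1.14. The value moved with single mice, from -0.22 without WT male 3 to -0.023 without WT male 1, the mouse with the highest Bdnf level. On the Ccdc82+/- background the difference was 0.10 (SE 0.16, adjusted p = 0.999) and on the Ccdc82-/- background 0.0051 (SE 0.17, adjusted p = 0.9997). The intervals on the single backgrounds are wider than that of the pooled comparison, since each rests on 7 to 8 mice a group.

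Across the pooled Q140 comparison, 0 of the 7 genes were called at an adjusted p under 0.05 in edgeR, where 0.876% of all 19174 genes tested were called (168 genes). Of the 7, 2 (Ngfr and Sort1) had an unadjusted p under 0.05, against 9.18% of all genes. All 7 had a difference below 0, against 49.0% of all genes, with a median of -0.048 beside 0.00085 over all genes. DESeq2 called 1 of the 7, Sort1, and 238 of all genes.

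The other growth factor, Ntf3, ranged from 0.254 to 0.776 CPM with a median of 0.485 in mice with Q140, and from 0.316 to 0.903 CPM with a median of 0.533 in mice without it. The log2 difference was -0.13 (SE 0.12, adjusted p = 0.830). Of 23 mice with Q140, 16 lay below the mean of mice without it of the same Ccdc82 genotype and sex. The 95% interval of the fold, 0.768 to 1.08, spans 1.

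The kinase receptors were the most tightly bounded after Sort1. Ntrk2 lay between 643 and 820.2 CPM with a median of 688 in mice with Q140, and between 640.5 and 881 CPM with a median of 703 in mice without it. The difference was -0.028 (SE 0.031, adjusted p = 0.865), a fold of 0.981 with a 95% interval of 0.939 to 1.02. Ntrk3 lay between 169 and 248 CPM with a median of 185 in mice with Q140, and between 161 and 266 CPM with a median of 189 in mice without it. Its difference was -0.023 (SE 0.041, adjusted p = 0.927), a fold of 0.984 with an interval of 0.929 to 1.04. The intervals of both receptor genes span 1, and the ranges of mice with and without Q140 overlapped.

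Ngfr had the largest difference of the 7 but did not pass the test. Its lowest, median and highest values were 0.535, 0.811 and 1.77 CPM in Q140 mice, 0.536, 0.845 and 1.17 in Q140 x Ccdc82+/-, and 0.678, 0.809 and 1.23 in Q140 x Ccdc82-/-. They were 0.780, 0.973 and 1.19 CPM in Ccdc82+/-, 0.811, 1.11 and 1.5 in Ccdc82-/- and 0.628, 1.14 and 1.34 in WT. The 3 medians with Q140 were all below the 3 without it, and the ranges overlapped. The pooled difference was -0.28 (SE 0.10, adjusted p = 0.280), a fold of 0.822 with a 95% interval of 0.711 to 0.951. Of 23 mice with Q140, 17 lay below the mean of mice without it of the same Ccdc82 genotype and sex. The mean count was 43.6 reads per library in Q140 mice against 57.8 in WT, a difference of few reads. Within the 6 columns of the library plate, Ngfr was lower with Q140 in 4, and the differences ran from -0.62 to 0.14. In bulk tissue, fewer cells of a type and less RNA per cell cannot be told apart.

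Sort1 came nearest to the threshold, through a small difference in a gene that varied little. Its lowest, median and highest values were 742, 768 and 806 CPM in Q140 mice, 716, 748 and 763 in Q140 x Ccdc82+/-, and 740.0, 767 and 795 in Q140 x Ccdc82-/-. They were 708, 781 and 818 CPM in Ccdc82+/-, 759, 791 and 809 in Ccdc82-/- and 766, 779 and 827 in WT. Mice with Q140 averaged 760.0 ± 20.4 CPM (SD, n = 23) and mice without it 783 ± 24.2 CPM (n = 24). The difference was -0.048 (SE 0.013, edgeR adjusted p = 0.0542), a fold of 0.967 with a 95% interval of 0.95 to 0.985. Of 23 mice with Q140, 20 lay below the mean of mice without it of the same Ccdc82 genotype and sex. Within plate columns Sort1 was lower with Q140 in 5 of 6, and the differences ran from -0.075 to 0.0040.

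Whether Sort1 counts as called therefore turned on the settings. Its adjusted p was 0.0279 in DESeq2 and 0.0477 with the number in the library name as a random block, both under the threshold. It was 0.134 with the plate column in the model and 0.0633 with the replicate block. It was also over the threshold with RLE in place of TMM scaling (0.0518), without a low-count filter (0.0693), without the sex term (0.104) and with limma on FPKM (0.0593). A low-count filter with sex in its design, chosen after seeing the data, gave 0.049. Without Ccdc82+/- male 1, which had the lowest Sort1 value of all (708 CPM), the adjusted p was 0.00535 and the difference -0.055. It was also under the threshold without any 1 of 12 other mice, at adjusted p-values from 0.0280 to 0.0497: Q140 female 3 and male 2, Q140 x Ccdc82+/- female 4 and male 2, Q140 x Ccdc82-/- female 2, Ccdc82+/- female 2 and male 3, Ccdc82-/- males 2 and 3, and WT females 2 and 3 and male 1. The direction was the same without any 1 of the 47 mice.

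The summed level of 4 striatal neuron markers (Drd1, Drd2, Adora2a and Ppp1r1b) varied with Sort1 between mice, with Pearson's r = 0.58 over 47 mice after genotype and sex were removed. Both were lowest in Ccdc82+/- male 1, with a marker sum of 67.9 CPM, and without that mouse r was 0.399. The sum lay between 68.3 and 91.5 CPM with a median of 82.04 in mice with Q140, and between 67.9 and 94.97 CPM with a median of 86.1 in mice without it. None of the 4 markers was at 0, and none was called with Q140. Sums of marker lists other than the striatal one varied with Sort1 too. Their r ran from -0.512 for oligodendrocyte precursors to 0.405 for basal forebrain cholinergic neurons, the latter at a low level. The part of any of these markers in the Sort1 difference was not tested.

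Vgf did not pass the test either. It lay between 254 and 404 CPM with a median of 313 in mice with Q140, and between 248 and 451 CPM with a median of 329 in mice without it. The difference was -0.050 (SE 0.064, adjusted p = 0.895), a fold of 0.966 with a 95% interval of 0.883 to 1.06. The 2 highest values were those of WT female 1 (451 CPM) and WT male 1 (439.8 CPM), the same mice that were highest for Bdnf and for Ntrk2. Vgf lies on the chromosome of the Htt knock-in, 102 Mb from Htt.

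**Figure D2:**
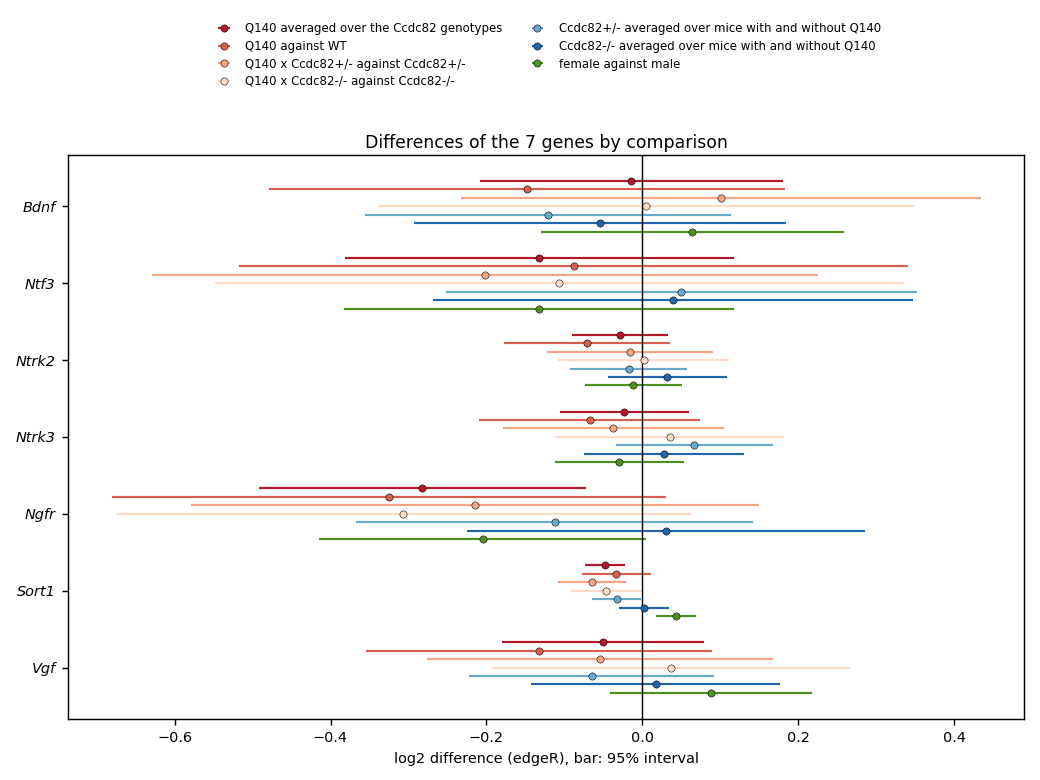
Log2 differences of the 7 genes with 95% intervals for 7 comparisons, in edgeR; a point left of 0 is lower in the mice named first. For the Q140 allele averaged over the Ccdc82 genotypes the intervals of Ngfr and Sort1 lie below 0, with adjusted p-values of 0.280 and 0.0542, and Bdnf, Ntf3, Ntrk2, Ntrk3 and Vgf have intervals that include 0.

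No single background gave a call either. In Q140 against WT, 0 of 7 genes were called (0.0313% of all genes), and all 7 differences were below 0, against 49.4% of all genes. The Q140 mice and the WT mice are all part of the pooled comparison too, so its count and this one are not independent. The same holds for the mice on the Ccdc82 backgrounds. On the Ccdc82+/- background 6 of the 7 differences were below 0, and on the Ccdc82-/- background 3 of the 7. Of all genes, 49.6% were below 0 on each of these backgrounds. On the Ccdc82+/- background 0 of 7 were called (0.0313% of all genes), and Sort1 differed by -0.064 (SE 0.022, 95% interval -0.11 to -0.020, adjusted p = 0.768). On the Ccdc82-/- background 0 of 7 were called (0.0209% of all genes), and Ngfr differed by -0.31 (SE 0.18, adjusted p = 0.9997). DESeq2 called 0 of the 7 in each of these 3 comparisons.

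Loss of Ccdc82 left the 7 genes without a call. In Ccdc82+/- against WT, Ccdc82-/- against WT, Q140 x Ccdc82+/- against Q140 and Q140 x Ccdc82-/- against Q140, 0 of 7 were called in edgeR, where 0.00522% of all genes, 1 gene, was called in each. Taking mice with and without Q140 together, Ccdc82+/- gave Bdnf a difference of -0.12 (SE 0.12, adjusted p = 0.913) and Ccdc82-/- one of -0.054 (SE 0.12, adjusted p = 0.9999). In the same averages Ntrk2 differed by -0.017 (SE 0.037) in Ccdc82+/- and by 0.032 (SE 0.038) in Ccdc82-/-. Sort1 had intervals below 0 in Q140 x Ccdc82+/- against Q140, at -0.048 (95% interval -0.092 to -0.0043, adjusted p = 0.921), and in the Ccdc82+/- average, at -0.033 (-0.064 to -0.0017, adjusted p = 0.905), and neither passed the test.

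Whether Ccdc82 loss changed the response to Q140 was tested as an interaction. For Bdnf the signed Q140 difference was below 0 on the WT background. It was higher than that by 0.25 on the Ccdc82+/- background (SE 0.23, 95% interval -0.22 to 0.72). On the Ccdc82-/- background it was higher than on the WT background by 0.15 (SE 0.24, interval -0.32 to 0.63). Without WT male 1 these values were 0.12 and 0.031, the lowest with any 1 mouse left out, and the highest were 0.32 without WT male 3 and 0.24 without Ccdc82-/- male 4. In both interactions edgeR called 0 of 7 genes and 0% of all genes, while 674 and 567 of all genes had an unadjusted p under 0.05, and DESeq2 also called 0. These intervals are the widest given for Bdnf, and groups of 7 to 8 mice bound an interaction loosely.

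Sort1 was the 1 of the 7 that differed between the sexes. It lay between 733 and 827 CPM with a median of 779.8 in 23 females, and between 708 and 809 CPM with a median of 764 in 24 males. The difference was 0.044 (SE 0.013, adjusted p = 0.0218), a fold of 1.03 with a 95% interval of 1.01 to 1.05, in a comparison where 10.5% of all genes were called. Sort1 was higher in females in 6 of 6 plate columns, by 0.0020 to 0.087. The call was lost with the number in the library name as a random block (adjusted p = 0.0701). The striatal marker sum ran the other way, at 80.4 ± 6.29 CPM in females and 86.1 ± 6.13 CPM in males (SD), with Ppp1r1b lower in females by 0.10 (adjusted p = 0.0339).

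Ngfr had the next smallest p between the sexes, with 0.893 ± 0.250 CPM in females and 1.04 ± 0.270 CPM in males (SD, n = 23 and 24). Its difference of -0.20 did not pass the test (SE 0.10, adjusted p = 0.203). Bdnf averaged 37.7 ± 7.44 CPM in females and 36.2 ± 8.65 CPM in males, a difference of 0.064 (SE 0.096, adjusted p = 0.719). Vgf differed by 0.088 (SE 0.064, adjusted p = 0.401).

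The Q140 difference of the 7 genes was not shown to depend on sex. In females Sort1 averaged 766 ± 21.2 CPM with Q140 (n = 11) and 795 ± 17.1 without it (n = 12). In males it averaged 755 ± 18.9 CPM with Q140 and 771 ± 24.6 without it (n = 12 each). The difference between these effects was -0.025 (SE 0.026, adjusted p = 0.9998), and edgeR called 0 of 7 genes and 0% of all genes, while 769 of all genes had an unadjusted p under 0.05 and DESeq2 called 0. For Bdnf the same quantity was -0.13 (SE 0.20).

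**Figure D3:**
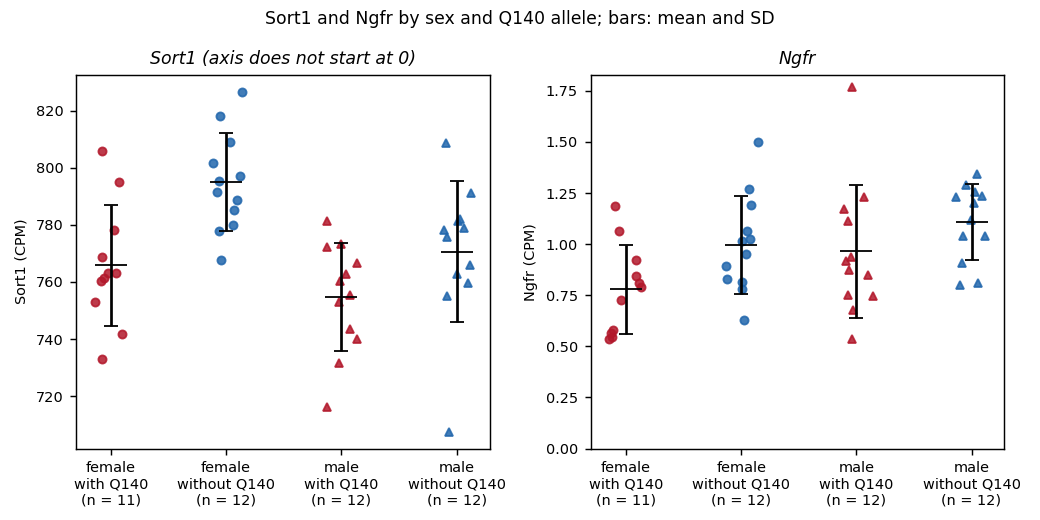
CPM of Sort1 (axis not from 0) and Ngfr (axis from 0) in females and males, with the Q140 allele on the left of each sex, 1 point per mouse and bars for the mean and SD. Sort1 averages 766 and 795 CPM in females with and without Q140 and 755 and 771 CPM in males; the points of the groups overlap in both genes.

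Between single mice, rather than between genotypes, Bdnf and Vgf moved closely together. Over 47 mice, after genotype and sex were removed from log2 CPM, Pearson's r was 0.910 and Spearman's rho 0.922, each with a permutation p of 1e-05, the smallest that 100000 permutations within genotype and sex can give (0.00021 adjusted over 21 gene pairs, two-sided). Without WT male 1 and Ccdc82-/- female 1, the mice farthest from the median of Bdnf, r was 0.888. It was 0.893 with plate columns removed, and 0.878 to 0.962 within the 6 columns. The relation was as close within each plate column, and it did not rest on the extreme mice.

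Ntrk2 moved with both, less tightly. With Vgf its r was 0.707 and rho 0.643 (adjusted permutation p = 0.000735 and 0.00284), 0.653 without its 2 farthest mice and 0.557 to 0.896 within plate columns. With Bdnf its r was 0.542 and rho 0.500 (adjusted permutation p = 0.00448 and 0.0106), 0.464 without the 2 farthest mice and 0.374 to 0.948 within plate columns. The receptor gene itself varied little, with WT male 1, the highest mouse, at 881 CPM beside a median of 693 CPM over all 47.

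Of the 21 pairs, 8 had an adjusted p under 0.05 for Pearson's r and 5 for both measures. Besides the 3 pairs of Bdnf, Vgf and Ntrk2, the 5 held Ntrk2 with Ngfr (r = -0.405, rho = -0.364) and Ngfr with Vgf (r = -0.362, rho = -0.367), and in both of these some plate columns gave an r above 0, up to 0.0636 and 0.0862. Ngfr had 27 to 87 reads per library, and these weaker values are given as description. Sort1 with Bdnf had r = 0.332 (adjusted permutation p = 0.072), and Ntrk3 with Bdnf r = 0.0123 (0.939).

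**Figure D4:**
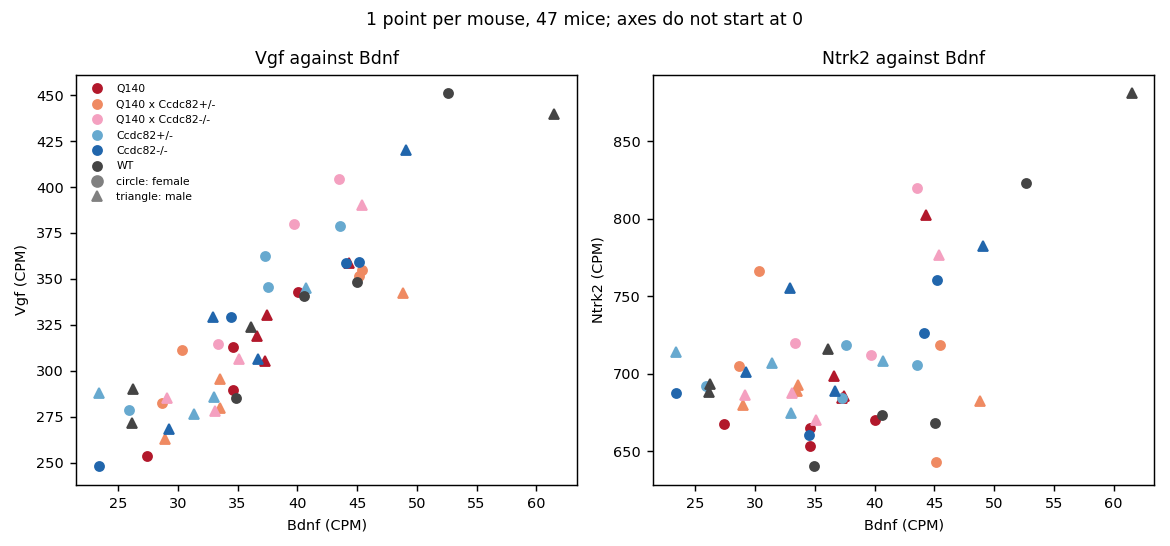
CPM of Vgf (left) and Ntrk2 (right) against CPM of Bdnf in 47 mice, coloured by genotype, circles female and triangles male; axes do not start at 0. Vgf rises with Bdnf across mice of every genotype, and the relation of Ntrk2 with Bdnf is looser, with WT male 1 and WT female 1 at the upper right.

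Bdnf and Vgf also moved with a list of 22 activity-regulated genes, those transcribed within minutes to hours of neuronal firing. Bdnf had a positive r with 22 of 22, with a median of 0.685, and Vgf with 21 of 22, with a median of 0.533. The share of all genes with a positive r is not given here, so these counts do not show that the list stands apart. Bdnf had r = 0.920 with Pcsk1, 0.911 with the transcription factor Egr3, 0.909 with Homer1, a postsynaptic scaffold, and 0.894 with Nptx2, a secreted pentraxin. Against these, its r was 0.254 with Fos, 0.206 with Junb and 0.130 with Dusp1. Vgf had its highest values with Nptx2 (0.922) and Egr3 (0.917), and 0.0862 with Fos.

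Ntrk2 had a positive r with 17 of the 22 genes, with a median of 0.185. Its highest value was with Inhba, the activin A subunit (0.867), and it had r = 0.696 with Homer1, 0.673 with Nptx2, 0.647 with Egr3 and 0.638 with Pcsk1. The median was 0.0412 for Sort1, 0.0098 for Ntrk3, 0.0541 for Ngfr and -0.0087 for Ntf3. The genes compared here were measured in the same libraries, and genes of the list are not independent of each other. No share over all genes is given beside these values either. Pcsk1, whose window is printed above with a full cAMP response element, encodes a convertase of the regulated secretory pathway in which Vgf is also cut.

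**Figure D5:**
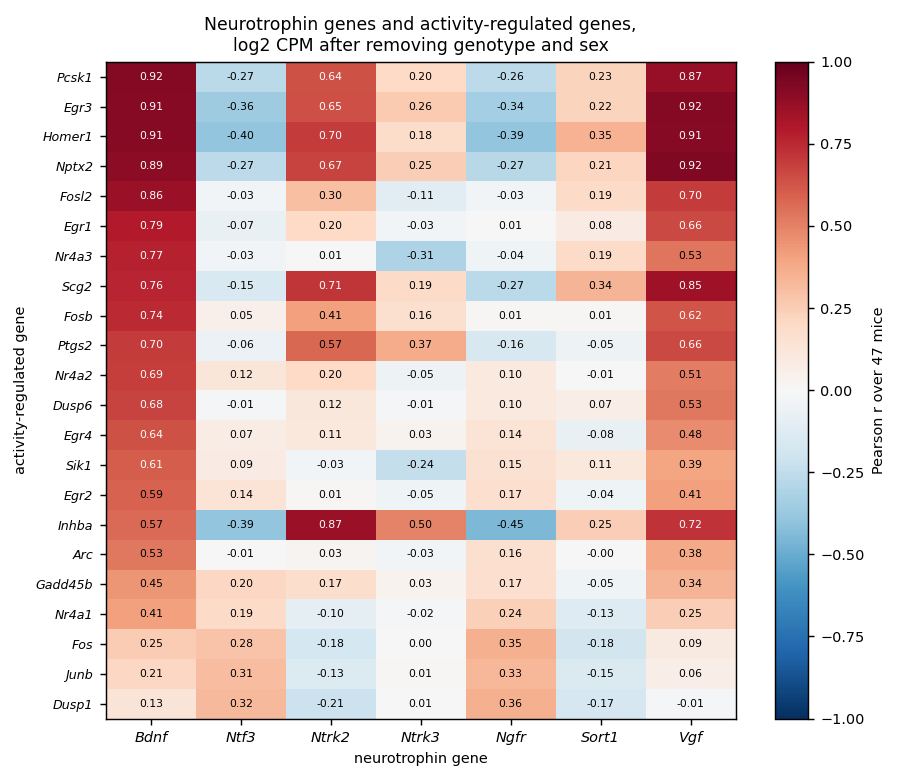
Pearson's r over 47 mice between each of the 7 genes (columns) and 22 activity-regulated genes (rows, ordered by r with Bdnf), from log2 CPM after genotype and sex were removed; red is positive and blue negative. Bdnf and Vgf are red in nearly every row, from 0.920 for Bdnf with Pcsk1 down to 0.130 with Dusp1, and the columns of Ntf3, Ntrk3, Ngfr and Sort1 are mostly pale.

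Markers of other cell types and regions moved with these genes too. The summed level of 5 oligodendrocyte markers had r = -0.516 with Bdnf and -0.516 with Vgf, and that of 3 thalamus markers r = 0.529 with Bdnf and 0.439 with Vgf. The oligodendrocyte sum lay between 1709 and 2730 CPM in mice with Q140 and between 1537 and 2521 CPM in mice without it, and the thalamus sum between 14.6 and 19.3 CPM with Q140 and between 14.6 and 19.4 CPM without it, with no marker of either list at 0. Their part in the relation of Bdnf with Vgf was not tested.

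Among 11929 genes with a mean of at least 5 CPM, the 3 most like Bdnf by r were Irs2, an adaptor of the insulin receptor (0.962), D8Ertd82e (0.948) and Dusp4, a MAP kinase phosphatase (0.938). Those most like Vgf were Nectin1, a cell adhesion molecule (0.936), Cx3cl1, the chemokine fractalkine (0.926), and Camk1g, a calcium/calmodulin-dependent kinase (0.925). Ntrk2 was closest to Ppm1h, a protein phosphatase (0.916), Zdhhc14 (0.906) and Erc1, a presynaptic scaffold (0.903). Ntrk3 was closest to Cacna1e, a voltage-gated calcium channel (0.919), Grin2b, an NMDA receptor subunit (0.874), and Enah, an actin regulator (0.866). Sort1 was closest to Extl3 (0.804), to Rasd2, a small GTPase abundant in striatal neurons (0.802), and to Ptk2b, a cytoplasmic tyrosine kinase (0.787). Ngfr, with Efnb3 at 0.759, and Ntf3, with Klhdc8a at 0.631, had no gene as close. All of these are over 47 mice after genotype and sex were removed.

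The wider pathway was read from 99 listed genes in 8 roles, of which 98 were found and 96 passed the filter on low counts; Bex3 was not found under that name. In mice with Q140, 1 rose and 2 fell, 3.12% against 0.876% of all genes, with a median of -0.0035 over the 96. Mapk3, the kinase ERK1 downstream of Trk receptors, rose by 0.085 (SE 0.022, adjusted p = 0.0395). Lingo1, a co-receptor of p75NTR, fell by 0.14 (SE 0.036, adjusted p = 0.0392). Htt, whose product takes part in the axonal transport of BDNF vesicles, fell by 0.074 (SE 0.015, adjusted p = 0.0032), and it is the gene that carries the knock-in. Lingo1 and Mapk3 were each called in 7 of 9 other settings, with adjusted p-values up to 0.0935 and 0.173, and Mapk3 was called without any 1 of 24 of the 47 mice. No listed gene was called in Q140 against WT or in any Ccdc82 comparison.

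By role, of 9 genes of precursor cleavage 0 were called, with plasminogen (Plg) at -0.090 and Pcsk1 at 0.068. Of 11 genes of sorting and secretion 0 were called, with the granins Chga at -0.059 and Scg2 at -0.050. Of 17 receptor partners and adaptors 1 fell, Lingo1, and Rtn4r, the Nogo receptor, was at -0.083 (adjusted p = 0.142). Of 15 downstream kinases and transcription factors 1 rose, Mapk3, and Rps6ka2 was at -0.062. Of 9 axonal transport genes 1 fell, Htt, and the kinesin light chain Klc2 was at -0.024.

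Of 14 regulators of Bdnf transcription 0 were called. Npas4, an activity-dependent transcription factor that binds Bdnf promoters, had the largest difference, -0.44 (SE 0.13, 95% interval -0.70 to -0.17, adjusted p = 0.117). Of the 22 activity-regulated genes 0 were called, with 19 below 0 and a median of -0.10, against 49.0% of all genes below 0. The largest were Egr2 at -0.30 (SE 0.19) and Dusp1 at -0.27 (SE 0.11, adjusted p = 0.390). Bdnf, at -0.014, and Pcsk1, at 0.068, lay at the upper end of this range.

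Between females and males, 14 of the 96 pathway genes were called, 8 higher and 6 lower in females, which is 14.6% against 10.5% of all genes. Among genes of sorting and secretion, Chga was higher in females by 0.12 (adjusted p = 0.000457) and the sortilin relative Sorl1 by 0.11 (adjusted p = 0.0184). Among convertases and proteases, Pcsk7 was lower by 0.090 (adjusted p = 0.000531) and Plg by 0.56 (adjusted p = 0.0368). Among receptor partners, the adaptors Shc3 and Sh2b1 were higher by 0.13 and 0.052, and Rtn4r by 0.091. Downstream, Rps6ka3 and Akt2 were higher by 0.095 and 0.068, and Rps6ka5 and Mapk3 were lower by 0.17 and 0.12 (adjusted p = 0.000192 and 0.000430).

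Of the remaining genes called between the sexes, the kinesin Kif5c was higher in females by 0.032 (adjusted p = 0.0497), and the immediate early genes Fos and Junb were lower by 0.40 and 0.35 (adjusted p = 0.0451 and 0.0449). Fos and Junb are the genes of the activity list with r of 0.254 and 0.206 with Bdnf, and Bdnf itself had a female-minus-male difference of 0.064. The interneuron markers Gad1 and Gad2 were lower in females by 0.062 and 0.052 (adjusted p = 0.00563 and 0.00803). The endothelial markers Cldn5 and Flt1 were higher in females by 0.21 and 0.082 (adjusted p = 0.0011 and 0.0468), and the hippocampal marker Fibcd1 by 0.15 (adjusted p = 0.00571). The part of these markers in the pathway differences was not tested. Calls near the threshold depended on the settings, with Plg called in 3, Kif5c in 2 and Fos in 4 of 7 other settings, while Chga, Pcsk7, Sorl1, Mapk3 and Rps6ka5 were called in 7 of 7.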

How the data were processed

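RNA was measured in the cerebral cortex of 47 mice, each library treated as 1 mouse. Per the submitters' processing notes, reads were handled with STAR 2.7.5c, SAMtools 1.10 and HTSeq 0.12.3 on GRCm38/mm10; the sources used here do not give the annotation release. The authors deposited counts, unnormalized and per gene, and FPKM values, which are scaled to gene length and library total.

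Genes were kept by filterByExpr on genotype (minimum count 10, minimum total 15), which left 19174 of 48795. A robust quasi-likelihood fit in edgeR 4.0.16 (R 4.3.3), after TMM scaling of all 47 libraries, had 6 genotype means and sex as terms. Adjusted p-values are Benjamini-Hochberg values over all genes tested, with a threshold of 0.05. The CPM values given for mice and groups are counts scaled to library totals, without TMM factors. Standard errors follow from the F statistic. The fit was checked on simulated counts. Correlations used TMM-scaled log2 CPM (prior count 2) after genotype and sex were removed, with permutation within genotype and sex. Counting error only is covered by read numbers.

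The 7 genes and the pathway, activity and marker lists were chosen with earlier results of these data known. Pathway genes were named where called in any comparison, or as the 2 of each role with the largest pooled Q140 difference; 3 genes most like each of the 7 were named by r. Some listed genes are not reported here, and the striatal marker sum was taken over the 4 markers named. Genes and mice singled out beyond that, Pcsk1 and its printed window included, were chosen after their values were seen. Alternatives were DESeq2 1.42.0, limma 3.58.1 on log2(FPKM + 0.1), other normalization, filters, terms and blocks, each sex alone, and leaving out each mouse.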

Additional observations from a re-analysis of the deposited data

Results flagged for a closer look

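Of 42 combinations of gene and genotype, each of 7 to 8 mice, 6 held 1 mouse whose CPM stood far from the others of its genotype by Dixon's criterion at the 95% level; chance gives about 1 in 20. In each the mouse was the highest of its group. For Ntrk2, Q140 male 2 had 803 CPM and the next mouse 699. For Ntrk3, this held for 1 mouse in each of 4 genotypes: Q140 female 4 at 214 CPM (next 185), Q140 x Ccdc82+/- male 1 at 224 (next 202), Q140 x Ccdc82-/- female 1 at 248 (next 204) and Ccdc82+/- male 1 at 266 (next 211). Ccdc82+/- male 1 also had the lowest Sort1 value and the lowest striatal marker sum of all 47 mice. For Ngfr, Q140 male 4 had 1.77 CPM and the next mouse 1.06. Why these mice stood apart was not tested.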

How the results depend on the processing

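In the Q140 comparison pooled over Ccdc82 genotypes, the number of the 7 genes called moved from 0 to 1, which was Sort1, with DESeq2, with a random block for the library-name number, and with a low-count filter that had sex in its design, which was chosen after seeing the data. It ranged from 0 to 1 when single mice were left out. Between the sexes the number moved from 1 to 0 with the library-name block. With the replicate block Sort1 had -0.047 (adjusted p = 0.0633) and 154 genes were called in the pooled Q140 comparison, against 168 without it. Residuals of libraries with the same replicate number and sex correlated with a median r of 0.0061 (115 pairs, -0.45 to 0.58). The median r was 0.051 for libraries with the same library-name number (45 pairs) and -0.018 for other pairs (938). With ranges this wide, these values do not show whether either number pairs the mice. Females alone and males alone each gave 19 genes called, with about 23 mice each, and Sort1 at 0.417 and 0.634. Over single mice left out the pooled Q140 count ran from 138 to 208. Between the sexes 2018 genes were called, 851 with the library-name block, 1467 without a filter and 2769 with the plate column. Of 924 values of the 7 genes under other settings, 29 changed sign, none of a called value. Causes were not tested. Of 3 pathway genes called with Q140, Htt was called in 9 of 9 other settings with both sexes, and Lingo1 and Mapk3 in 7 each. Ntf3 and Ngfr had under 100 reads per library, which limits the precision of single libraries.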
